A study of Mus musculus with 38 samples.

Results

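The interferon response genes described here are 41 genes whose products sense foreign nucleic acid, carry the interferon signal or act against viruses. They were taken by name from the count tables, out of 55487 genes in each of 2 tables and 57126 in each of the other 2, and all 41 were present in every table. By role they comprised 6 sensors, 4 transcription factors, 7 GTPases, 9 genes of the ubiquitin-like and ADP-ribose machinery and 15 other effectors.

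Interferons are cytokines that cells release when they detect nucleic acid in the wrong place. Type I interferons bind a receptor made of Ifnar1 and Ifnar2, which switches on a complex holding Stat2 and Irf9 that binds an interferon-stimulated response element in the promoters of its targets, whereas interferon gamma acts through a GAS element. In tumour cells a low, persistent output of these genes can run without added interferon, and many of the sensors and factors are themselves targets, so that the program feeds back on itself.

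All libraries are labelled 4T1, an established mouse line of mammary adenocarcinoma that stands in for triple-negative breast cancer, and they come from 4 experiments. In culture, 3 libraries came from untreated cells, 3 from cells that received exosomes (small secreted vesicles) from insulin-sensitive (IS) adipocytes and 3 from cells with exosomes from insulin-resistant (IR) ones, the treated cells being kept for 72 h; the adipocytes were differentiated from 3T3-L1 cells. A brain clonogenic assay gave 5 control, 5 IS and 5 IR libraries, and primary tumours gave 4 control and 5 IR libraries. In a further experiment 4T1 cells received a miRNA, with 2 libraries titled as scrambled control and 3 titled miR-145a-3p. The labels call the replicates biological without saying whether each is a separate culture or animal, so the p-values measure the spread between these libraries, and for the brain and tumour groups they give neither the mouse strain, the age nor what the IS and IR animals received.

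The labels of the miRNA experiment contradict each other: the libraries titled scramble carry library names that begin with miR145, and those titled miR-145a-3p carry names that begin with ScRNA. They are called by their titles below, and which group received miR-145a-3p cannot be told from the sources used here. In the brain libraries the 7 epithelial tumour markers summed to 121 to 254 CPM (counts scaled to library size), against 2670 to 3610 CPM in cultured 4T1 cells, and the defining epithelial gene Epcam was at 0.279 to 2.91 CPM. Markers of fibroblasts there summed to 445 to 993 CPM and myeloid markers to 421 to 3720 CPM, so that the RNA labelled as 4T1 cells from brain held little epithelial signal. In bulk libraries of this kind fewer cells of a type and less RNA per cell cannot be told apart. Totals per library ran from 8455404 to 12785380 counts in culture, 8790610 to 13272580 in brain, 17392862 to 21909289 in tumours and 24972516 to 32637504 in the miRNA experiment.

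The promoters of 7 members picked by hand are shown because the members are known as targets of shared response elements. Of the 41 members, 33 had a promoter window in RefSeq (GRCm38.p6), running from 250 bases before to 50 bases after a transcription start, with Rigi under its older symbol Ddx58. The core letters of the interferon element, GAAA followed by any 2 bases and GAAA again (on the other strand TTTC, 2 bases and TTTC), stood in a window of 18 of the 33, against 3.99% of the 27025 genes in that table and 3.44% of its 32851 windows. The GAS letters TTCNNNGAA, which read the same on both strands, stood in a window of 7 of the 33, against 9.55% of genes. The 250 bases before the start are printed 5′ to 3′ in the direction of transcription. Capitals mark the interferon element letters, and in Irf1 the GAS letters; overlapping matches run together.
Isg15 promoter, chr4:156200819-156201068, minus strand: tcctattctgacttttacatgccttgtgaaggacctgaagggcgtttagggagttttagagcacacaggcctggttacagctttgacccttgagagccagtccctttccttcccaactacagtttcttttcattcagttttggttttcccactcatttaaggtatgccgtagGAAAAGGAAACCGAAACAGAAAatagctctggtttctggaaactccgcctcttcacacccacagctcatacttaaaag
Ifit1 promoter, chr19:34640639-34640888, plus strand: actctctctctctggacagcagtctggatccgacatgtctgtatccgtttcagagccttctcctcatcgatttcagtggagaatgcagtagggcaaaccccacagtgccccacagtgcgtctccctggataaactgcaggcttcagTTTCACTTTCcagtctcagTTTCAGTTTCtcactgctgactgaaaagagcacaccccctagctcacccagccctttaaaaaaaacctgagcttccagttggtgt
Oas1a promoter, chr5:120907526-120907775, minus strand: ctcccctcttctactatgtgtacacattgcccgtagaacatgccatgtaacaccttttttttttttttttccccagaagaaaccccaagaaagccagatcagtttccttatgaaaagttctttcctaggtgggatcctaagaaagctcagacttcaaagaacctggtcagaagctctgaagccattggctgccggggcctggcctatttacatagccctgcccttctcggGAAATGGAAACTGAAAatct
Gbp3 promoter, chr3:142559794-142560043, plus strand: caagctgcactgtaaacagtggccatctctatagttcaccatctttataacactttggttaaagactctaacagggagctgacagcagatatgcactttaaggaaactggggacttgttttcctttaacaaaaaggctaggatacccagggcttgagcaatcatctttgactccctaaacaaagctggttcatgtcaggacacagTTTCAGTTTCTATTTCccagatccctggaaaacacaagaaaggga
Stat2 promoter, chr10:128270248-128270497, plus strand: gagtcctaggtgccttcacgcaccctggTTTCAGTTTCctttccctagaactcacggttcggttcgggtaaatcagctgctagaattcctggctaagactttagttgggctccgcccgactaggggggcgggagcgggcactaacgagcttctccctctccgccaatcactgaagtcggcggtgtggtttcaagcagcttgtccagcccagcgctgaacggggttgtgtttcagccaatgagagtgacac
Irf1 promoter, chr11:53769764-53770013, plus strand: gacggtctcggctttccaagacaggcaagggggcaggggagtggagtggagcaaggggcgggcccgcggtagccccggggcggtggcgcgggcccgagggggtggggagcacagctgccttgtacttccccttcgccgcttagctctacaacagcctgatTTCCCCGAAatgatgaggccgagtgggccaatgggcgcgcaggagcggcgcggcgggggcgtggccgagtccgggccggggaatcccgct
Parp12 promoter, chr6:39118350-39118599, minus strand: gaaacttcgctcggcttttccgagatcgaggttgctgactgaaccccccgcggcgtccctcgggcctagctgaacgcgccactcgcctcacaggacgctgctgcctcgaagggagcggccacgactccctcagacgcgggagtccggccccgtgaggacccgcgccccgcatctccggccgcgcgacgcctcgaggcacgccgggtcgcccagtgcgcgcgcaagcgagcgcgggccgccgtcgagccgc
Isg15, the ubiquitin-like modifier, held 3 overlapping matches that began 78, 72 and 66 bases before the start. Ifit1, which binds viral RNA lacking a proper cap, held 2 separate matches at 104 and 85 bases, and the guanylate-binding protein Gbp3 held 2 overlapping ones at 45 and 39. Stat2 held a single match far upstream, at 222 bases, whereas Irf1 held none of these and 1 GAS match at 90 bases. Oas1a held 2 overlapping interferon element matches and also 1 GAS match, at position -98 from the start, which is left in lower case. Parp12, an ADP-ribosyltransferase, held neither set of letters, which says only that they are not in this window. Of the 7 printed, Irf1, Stat2 and Gbp3 rose in the brain IS comparison described below. Xaf1, Irf7, Irf9, Oasl2 and Lgals3bp also rose there, held no interferon element letters in a window and are not printed. Rigi and Ifit3 rose, held these letters and are not printed either.

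In the brain clonogenic assay the members stood higher in the IS group than in controls. Of 34 members tested (3 CPM or more in at least 3 of the 15 libraries), 11 rose and 0 fell in edgeR's quasi-likelihood test at a Benjamini-Hochberg adjusted p of 0.05, that is 32.4% against 3.37% of all 12924 genes tested that rose (3.1% of all genes fell). All 34 fold changes were above 0, with a median of 0.50 on the log2 scale, where the median over all genes was -0.0014. DESeq2 called 12 higher and 1219 of all genes in either direction, where edgeR called 835. By edgeR 17 members had an unadjusted p under 0.05, where 21.7% of all genes did.

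The transcription factors were the role in which every member passed: all 4 rose. Irf1, a factor that starts transcription of many antiviral genes, was at 12.3, 7.91, 8.84, 10.5 and 8.36 CPM in the 5 control libraries and at 15.6, 14.2, 14.6, 16.3 and 15.8 CPM in the 5 IS libraries, a log2 fold change of 0.67 ± 0.13 (SE) with adjusted p = 0.00465. The groups did not overlap, and the IS libraries lay within a narrow band. Irf9, the DNA-binding subunit of the complex with Stat2, was at 16.2, 20.7, 19.8, 14.4 and 22.9 CPM in controls and 26.4, 33.5, 27.9, 24.4 and 29.1 CPM in IS, 0.59 ± 0.16 with adjusted p = 0.0406. Its partner Stat2 was at 20.4, 23, 23.7, 23.3 and 26.4 CPM in controls and 27.4, 36.6, 37.7, 29.4 and 34.3 CPM in IS, 0.50 ± 0.12 with adjusted p = 0.0234. For both subunits every IS library exceeded every control library. Irf7, the factor that amplifies type I interferon output, was at 2.17, 4.89, 4.79, 2.65 and 5.37 CPM in controls and 11.6, 10.3, 8.19, 5.32 and 8.82 CPM in IS, 1.15 ± 0.29 with adjusted p = 0.0273. Here IS 4 fell just under the highest control and the other 4 IS libraries lay above it.

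Among the sensors 1 of 5 tested rose. Rigi, which detects short double-stranded RNA with a 5′ triphosphate, was at 36.5, 46.8, 46.1, 31.6 and 53.5 CPM in controls and 55.8, 81.3, 69.3, 52.1 and 61.4 CPM in IS, 0.58 ± 0.14 on the log2 scale with adjusted p = 0.0201. Only IS 4 dipped into the control range. The other RNA sensors Ifih1, Dhx58, Eif2ak2 and Oas1a did not pass, at 0.24, 0.11, 0.15 and 0.40, and the nucleic acid sensor Zbp1 was too low to test.

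Of the GTPases, large GTP-binding proteins that act on the membranes of intracellular pathogens or on viral capsids, 1 of 5 tested rose. Gbp3 was at 2.17, 4.42, 5.11, 3.46 and 5.28 CPM in controls and 7.17, 11.1, 9.49, 3.72 and 12.2 CPM in IS, 1.10 ± 0.32 with adjusted p = 0.0469. IS 4 lay among the controls and the other IS libraries above them. Gbp2, Gbp7, Igtp and Irgm1 had log2 fold changes of 0.12 to 0.32 that did not pass. Mx1, which in many laboratory mouse strains is a defective gene, had 3 counts in all 15 libraries together, and Mx2 had 187.

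In the ubiquitin-like and ADP-ribose group 1 of 9 rose. Parp14, an ADP-ribosyltransferase that modifies proteins in the interferon response, was at 16.9, 18.7, 20.9, 17.4 and 19.4 CPM in controls and 19.1, 35.4, 28.9, 28.7 and 28.5 CPM in IS, 0.59 ± 0.13 with adjusted p = 0.0136. IS 1 lay within the control range and the other 4 above it. Usp18, the protease that removes Isg15 from its targets, had a log2 fold change of 0.99 ± 0.30 that missed the threshold at adjusted p = 0.057 in edgeR and met it in DESeq2 at 0.0188. Isg15 itself had 0.77 ± 0.34 with adjusted p = 0.201, and Trim25, the ligase that activates Rigi, 0.23 ± 0.10 with adjusted p = 0.185.

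Of the other effectors 4 of 11 tested rose. Xaf1, a protein that promotes cell death, was at 1.86, 1.51, 2.87, 1.12 and 3.26 CPM in controls and 6.27, 7.74, 5.3, 4.04 and 4.9 CPM in IS, the largest log2 fold change among the tested members at 1.40 ± 0.28 with adjusted p = 0.00822. Ifit3, a partner of Ifit1, was at 5.77, 6.87, 7.45, 6.11 and 7.3 CPM in controls and 14.8, 10.2, 10.5, 8.19 and 14.2 CPM in IS, 0.79 ± 0.23 with adjusted p = 0.0455. Neither gene's groups overlapped. The secreted glycoprotein Lgals3bp was at 353, 505, 562, 362 and 499 CPM in controls and 629, 713, 684, 578 and 614 CPM in IS, 0.50 ± 0.12 with adjusted p = 0.0221, also without overlap. Oasl2, of the family of RNA-activated synthetases, was at 4.74, 5.12, 6.39, 2.75 and 5.98 CPM in controls and 10, 13.5, 9.03, 5.64 and 8.07 CPM in IS, 0.89 ± 0.25 with adjusted p = 0.0418. Its library IS 4 fell within the control range. In all, 6 of the 34 tested members had every IS library above every control library, where 3.74% of all genes did.

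**Figure D1:**
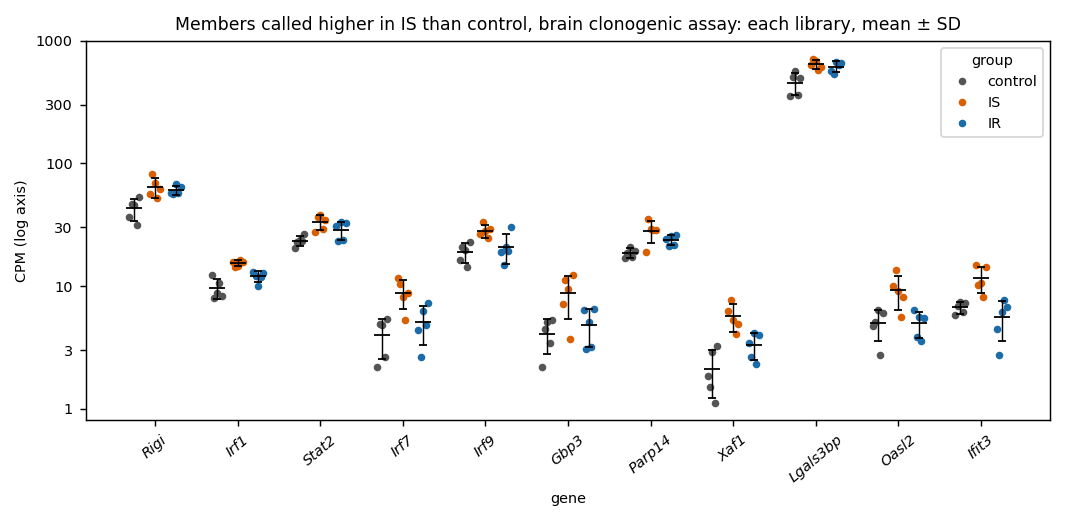
Each library's level in CPM (log axis) of the 11 members that rose in the IS group of the brain clonogenic assay, with control in grey, IS in orange and IR in blue; bars are the mean and SD of 5 libraries. Irf1, Irf9, Stat2, Ifit3, Xaf1 and Lgals3bp have no overlap between IS and control. The fitted difference of IR minus IS is below 0 for all 11, as for 33 of the 34 tested members, and 0 passed in edgeR. The 11 were picked as high in these same IS libraries, which favours that sign.

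The number that rose changed when single libraries were left out, as did the calls over all genes. It was 3 without control 1, 4 without control 4, 6 without control 2, IS 2 or IS 3 and 7 without IS 5. It was 8 without control 3 or control 5, 10 without IS 1 and 12 without IS 4. Over all genes 835 were called in either direction in the main fit, 565 without control 1 and 498 without control 4. Without control 2, IS 2, IS 3 and IS 5 they were 465, 608, 661 and 711. The median of the members stayed between 0.44 and 0.52, and Irf1, Parp14 and Xaf1 passed under every alternative tried. Control 4 was the lowest control for 20 of the 34 members and IS 2 the highest IS library for 18. Endothelial markers (5 of 5 tested) summed to 79.5 to 112 CPM in controls, 98.5 to 540 in IS and 325 to 691 in IR, with IS 2 highest of the IS group; without IS 1 and IS 2, chosen after seeing the data, 6 members passed and the median was 0.54. Myeloid markers summed to 1750 to 3410 CPM in controls and 881 to 3720 in IS, and astrocyte markers to 111 to 152 and 153 to 227; their part in the result was not tested. Lymphocytes left almost no trace, as the T and NK cell list summed to at most 0.722 CPM and the B cell list to at most 0.407, and the plasmacytoid dendritic cell marker Siglech was at 0 in all 15 libraries.

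Of 110 other genes of the pathway, listed apart from the members, 80 were tested in brain. In the IS group 6 rose (7.5% against 3.37% of all genes) and 1 fell (1.25% against 3.1%). Tapbp, which helps load peptides on MHC class I, rose by 0.30 ± 0.07 (adjusted p = 0.0212) and Parp10 by 0.49 ± 0.12 (adjusted p = 0.0219). Mavs, the mitochondrial adaptor through which Rigi signals, fell by 0.27 on the log2 scale (SE 0.06, adjusted p = 0.0127). The receptor chains Ifnar1 and Ifnar2 had log2 fold changes of -0.07 and 0.10 that did not pass, and the type I interferon gene Ifnb1 had 0 counts in all 15 libraries, which allows at most 0.0194 CPM over them together, counting error only. The 5 other genes whose log2 levels followed the mean of the 34 members most closely over the 15 libraries were B2m (Pearson r = 0.896), Trmt1 (0.853), Zc3h12a (0.841), Rab10os (0.837) and Hps1 (0.833), values that share the libraries and their depth and are given as a description.

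The IR group of the brain assay, compared with the same 5 controls, showed 2 of the 34 members higher (5.88% against 6.45% of all genes) and 0 lower (background 5.27%); DESeq2 called the same number, and 6 had an unadjusted p under 0.05 (26% of all genes). Rigi was at 56.8, 56.5, 67.4, 56.9 and 64.5 CPM, each above the highest control, with a log2 fold change of 0.49 ± 0.14 and adjusted p = 0.0286. Lgals3bp was at 565, 539, 677, 639 and 662 CPM, 0.43 ± 0.12 with adjusted p = 0.0281, and only IR 2 fell under the highest control. Both calls were lost without control 1, control 4, IR 3 or IR 5. Over all genes 1514 were called in either direction in the main fit, and 1037, 898, 836 and 1108 without these libraries in turn. Without control 1 Irf1 passed instead, at 0.42 on the log2 scale (adjusted p = 0.0415 in edgeR). The factors Irf1, Irf7, Irf9 and Stat2 had log2 fold changes of 0.32, 0.35, 0.15 and 0.30 that did not pass, and the median over the 34 members was 0.13. Of the 80 other pathway genes 6 rose and 6 fell, 7.5% each way, near the 6.45% and 5.27% of all genes. Among them Slfn2, a growth regulator of the Schlafen family, fell by 0.97 on the log2 scale (SE 0.14, adjusted p = 0.000622), and the interferon gamma receptor chain Ifngr2 by 0.30 (SE 0.08, adjusted p = 0.018).

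Set directly against the IS group, 33 of the 34 members had a negative fold change in IR, with a median of -0.37, but 0 passed in either direction in edgeR (background 0.0232% each way, since 6 of 12924 genes passed). DESeq2 called 3 lower, but it also called 604 of all genes in either direction, so edgeR's background does not apply to it. By edgeR 15 of the 34 had an unadjusted p under 0.05, where 18.1% of all genes did. Ifit3 was at 4.44, 2.74, 6.11, 7.69 and 6.74 CPM in IR, below each of the 5 IS libraries, with a log2 fold change of -1.07 ± 0.23, adjusted p = 0.0682 in edgeR and 0.00209 in DESeq2. Irf1 was at 13.1, 12.1, 9.99, 11.8 and 12.8 CPM in IR, also below every IS library, -0.36 ± 0.12 with adjusted p = 0.139. Oasl2 had -0.89 ± 0.25 (adjusted p = 0.0774 in edgeR and 0.0211 in DESeq2) and Irgm1 -0.42 ± 0.13 (0.0973 and 0.0448). Rigi and Lgals3bp, the members higher in both groups against control, differed little between them, at -0.08 ± 0.14 and -0.06 ± 0.12. Myeloid markers summed to 421 to 2000 CPM in IR against 881 to 3720 in IS, and microglial markers to 109 to 222 against 168 to 507; their part in these differences was not tested. The IS and IR comparisons share their control libraries, so their fold changes are given only side by side.

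**Figure D2:**
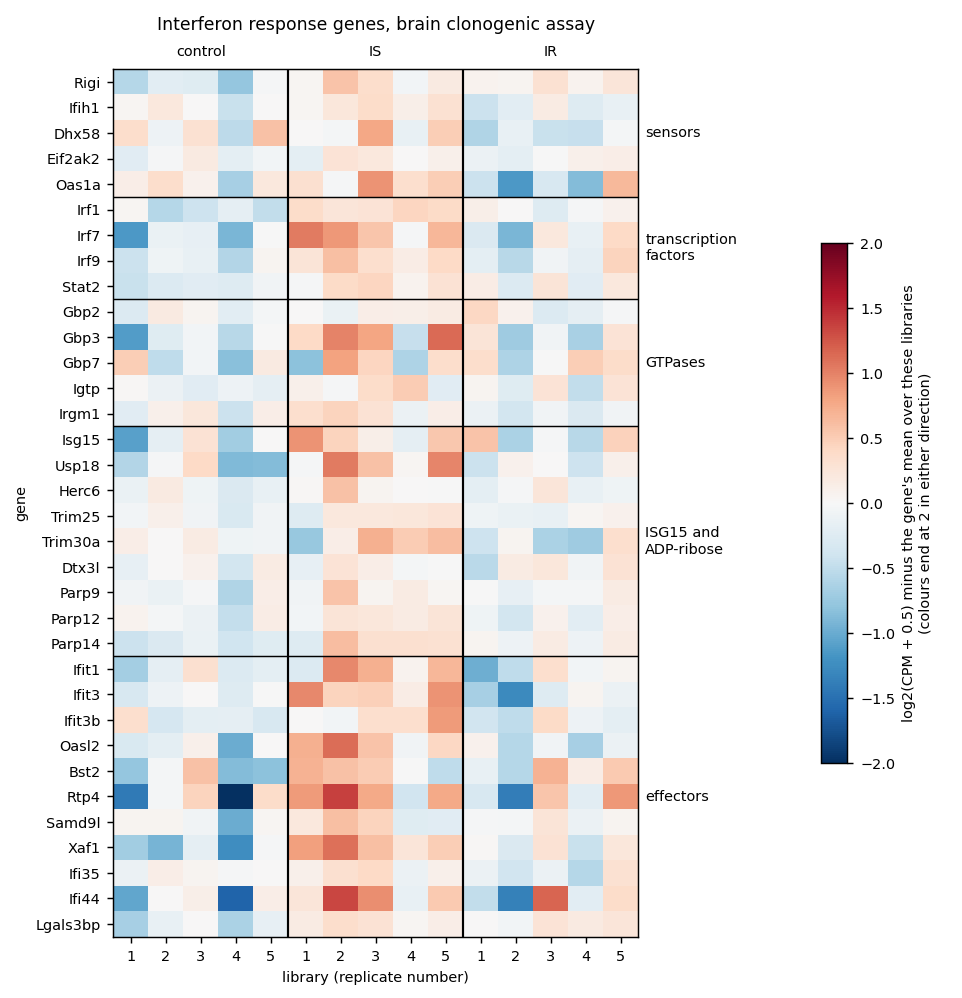
Level of the 34 tested members in each of the 15 brain libraries, as log2(CPM + 0.5) minus the gene's mean, red above and blue below it, with genes grouped by role. The IS columns are mostly red and control 4 and IR 2 mostly blue, these 2 libraries being the lowest of their groups for 20 and 19 of the 34 members.

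In the miRNA experiment most members were lower in the libraries titled miR-145a-3p than in those titled scramble. Of 28 members tested, 21 were lower (75% against 28.7% of all 10751 genes) and 4 higher (14.3% against 28%), with a median log2 fold change of -0.67 where that of all genes was -0.01. Of all genes tested, 56.7% differed in this comparison. The directions below all depend on the titles.

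All 4 GTPases tested were lower, where 28.7% of all genes were. Gbp3 was at 19.4 and 19.2 CPM in the libraries titled scramble and 7.71, 7.8 and 7.45 CPM in those titled miR-145a-3p, -1.34 ± 0.10 on the log2 scale with adjusted p = 0.000101, the smallest among the members. Gbp7, Gbp2 and the immunity-related GTPase Irgm1 had -1.19 ± 0.20, -0.68 ± 0.13 and -0.45 ± 0.10. In each of the 4 the groups did not overlap, but 36.9% of all genes tested were likewise lower without overlap.

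Among the sensors 3 of 4 were lower, where 28.7% of all genes were. Rigi was at 61.6 and 69.3 CPM against 37.6, 37.7 and 36.5 CPM, -0.81 ± 0.07 with adjusted p = 0.000124. Oas1a, which makes the messenger that activates RNase L, was at 11.2 and 14.7 CPM against 4.72, 4.23 and 5.38 CPM, -1.44 ± 0.17 with adjusted p = 0.000374. The kinase Eif2ak2 had -0.55 ± 0.07, and Ifih1 did not pass at -0.15 ± 0.09. For all of them the lowest library titled scramble exceeded the highest titled miR-145a-3p, an order that 36.9% of all genes tested showed.

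The transcription factors split. Irf9 was at 16.7 and 21.8 CPM against 10.8, 10.7 and 10.1 CPM, -0.87 ± 0.13 with adjusted p = 0.000995, and Stat2 was lower by a similar amount, -0.78 ± 0.14 with adjusted p = 0.00207. Irf1 went the other way, at 62.8 and 66.3 CPM in the libraries titled scramble and 83.4, 86.9 and 85.9 CPM in those titled miR-145a-3p, 0.41 ± 0.06 with adjusted p = 0.000806. Irf7 was below the filter, with 9.22 and 15.5 CPM against 2.05, 1.65 and 2 CPM.

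Of the 10 other effectors tested 9 were lower. Bst2, the tether that holds budding virus particles at the cell surface, was at 86.8 and 100 CPM against 53.4, 46.3 and 50.2 CPM, -0.91 ± 0.08 with adjusted p = 0.000166. Oasl2 was at 44.1 and 66.4 CPM against 19.2, 18.7 and 17.5 CPM, -1.58 ± 0.15 with adjusted p = 0.000185. Ifit1 was at 12 and 16.5 CPM against 4.18, 5.23 and 4.73 CPM, -1.59 ± 0.17 with adjusted p = 0.000284. The groups of these 3 genes were far apart. Xaf1 had the most negative fold change of the members tested, -2.05 ± 0.28, from 7.91 and 15.7 CPM to 3.21, 2.78 and 2.5 CPM. The chemokine Cxcl10 had -1.26 ± 0.18 and Lgals3bp 0.03 ± 0.06, which did not pass.

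The ubiquitin-like and ADP-ribose group held members of both directions. Isg15 was at 28.2 and 41 CPM against 12.8, 12.2 and 11.9 CPM, -1.49 ± 0.15 with adjusted p = 0.000194. Herc6, the ligase for Isg15 in mice, and Parp14 were also lower, at -0.65 ± 0.13 and -0.52 ± 0.08. Dtx3l, a ubiquitin ligase, was higher, at 11.6 and 10.2 CPM against 17, 22.4 and 20.3 CPM, 0.87 ± 0.14 with adjusted p = 0.00128. Parp12 at 0.57 ± 0.08 and Trim25 at 0.25 ± 0.06 were higher too, while Parp9, the partner of Dtx3l, did not pass at 0.01 ± 0.09. Returning to the promoters, of the 13 tested members with the interferon element letters in a window 12 were lower and 0 higher, with fold changes of -1.59 to -0.15, and of the 12 tested members with a window but without these letters 7 were lower and 4 higher, with fold changes of -2.05 to 0.87, where 28.7% of all genes were lower and 28% higher. In the brain IS comparison 4 of 16 members with the letters and 6 of 13 without them rose, where 3.37% of all genes did, with medians of 0.45 and 0.50.

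The other 13 members did not reach 3 CPM in 3 libraries, a filter that works against genes expressed only in the group of 2. All 13 were lower in every library titled miR-145a-3p than in either titled scramble. Among the 28 tested, 22 showed this order, where 36.9% of all genes tested did. For a member at 3 CPM or more in both libraries titled scramble, failing the filter fixes the order. That does not hold for a member under 3 CPM there, such as Usp18. The 13 were not tested and are not counted as support. Examples of the 13 are the helicase Dhx58, at 5.59 and 9.07 CPM against 1.86, 1.45 and 1.96 CPM, and Usp18, at 2.29 and 2.57 CPM against 0.271, 0.414 and 0.423 CPM. With no filter 33 of 41 members were lower, but 7999 genes were then called in either direction, against 6093 with the filter. The share of all genes lower without a filter is not given, and the 28.7% above does not apply to it.

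**Figure D3:**
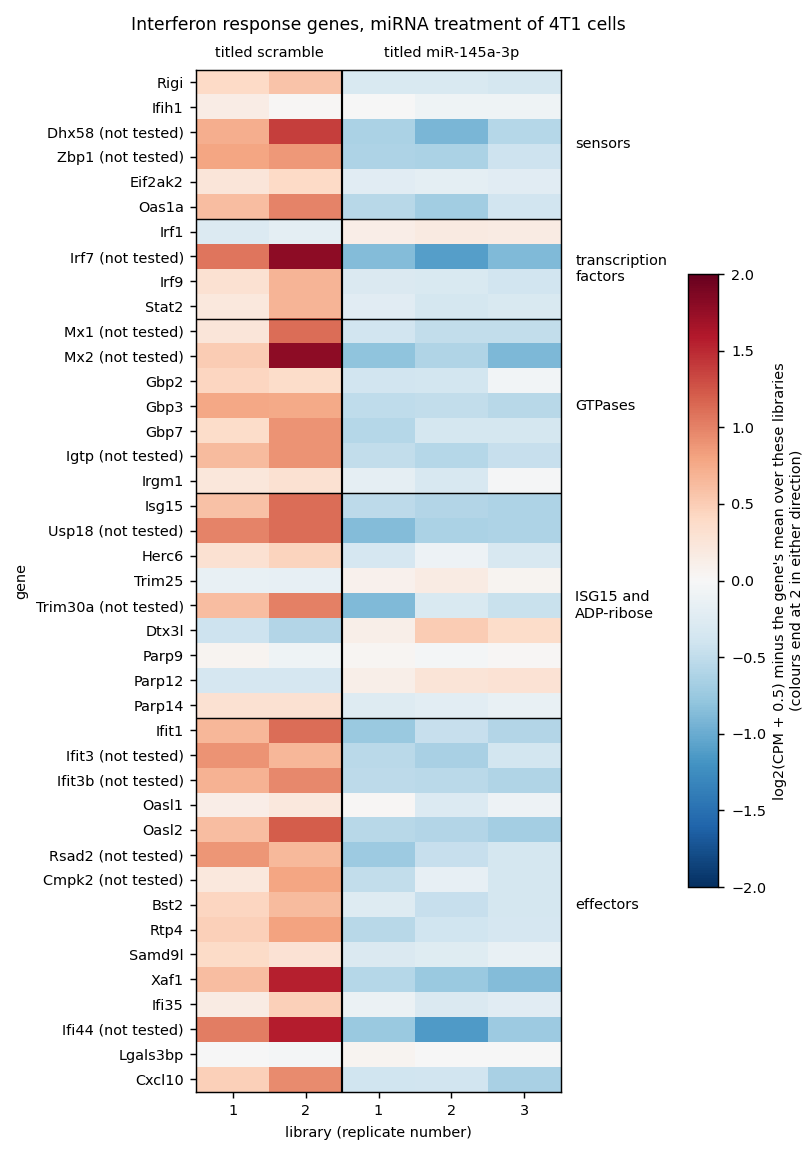
Level of all 41 members in the 5 libraries of the miRNA experiment, as log2(CPM + 0.5) minus the gene's mean, with genes grouped by role and those below the filter named as not tested. The 2 columns titled scramble are red and the 3 titled miR-145a-3p blue for most genes, with the reverse for Irf1, Trim25, Dtx3l and Parp12.

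The 2 libraries titled scramble also differed from each other and from the rest in mitochondrial RNA. The 13 genes encoded in mitochondrial DNA summed to 85900 to 136000 CPM in them and to 16200 to 18800 CPM in the 3 titled miR-145a-3p, and the library titled scramble 2, the higher in this sum, was the higher for 18 of the 28 members. Leaving out all 37 genes with a mitochondrial (mt-) symbol gave 21 lower and 4 higher members. Leaving out the library titled scramble 2 gave 19 lower and 4 higher of 27 tested; the lone library of that arm is then assumed to vary like the other group. Among the other pathway genes 37 of 75 were lower (49.3% against 28.7% of all genes) and 4 higher (5.33% against 28%). Ifi27, an interferon-induced membrane protein, had -1.26 ± 0.06 (adjusted p = 3.21e-05), the non-classical class I gene H2-T23 -1.23 ± 0.08 (adjusted p = 6e-05), B2m, the class I light chain, -0.70 ± 0.05 and the helicase Helz2 -0.82 ± 0.07 (adjusted p = 0.000102 for both). The receptor chain Ifnar2 was lower (-0.33 ± 0.08, adjusted p = 0.0112), Ifnar1 did not pass at -0.15 ± 0.07, and Ifnb1 had 7 counts in the 5 libraries together.

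Side by side, 26 members were tested in both the brain IS comparison and the miRNA experiment. All 26 had a positive fold change in brain IS, while 20 were negative and 6 positive in the libraries titled miR-145a-3p. Of the 11 members that rose in brain IS, 9 were tested in the miRNA experiment, where 7 were lower (Rigi, Irf9, Stat2, Gbp3, Parp14, Oasl2 and Xaf1), 1 was higher (Irf1) and 1 did not pass (Lgals3bp). These 7 are 63.6% of the 11 members that rose in brain IS, of which Irf7 and Ifit3 were not tested in the miRNA experiment. They are 33.3% of the 21 members that were lower in it. Of all 26 members tested in both, 19 were lower in the miRNA experiment, so the 7 of 9 lies near the share of the members at large. Of all genes 28.7% were lower there. The 2 experiments differ in cells and in scale and no test joins them: the level of Xaf1 moved by 1.40 on the log2 scale in one and by -2.05 in the other, that of Irf1 by 0.67 and 0.41. If the library names rather than the titles are right, the signs of the miRNA column turn over and its sizes stay.

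**Figure D4:**
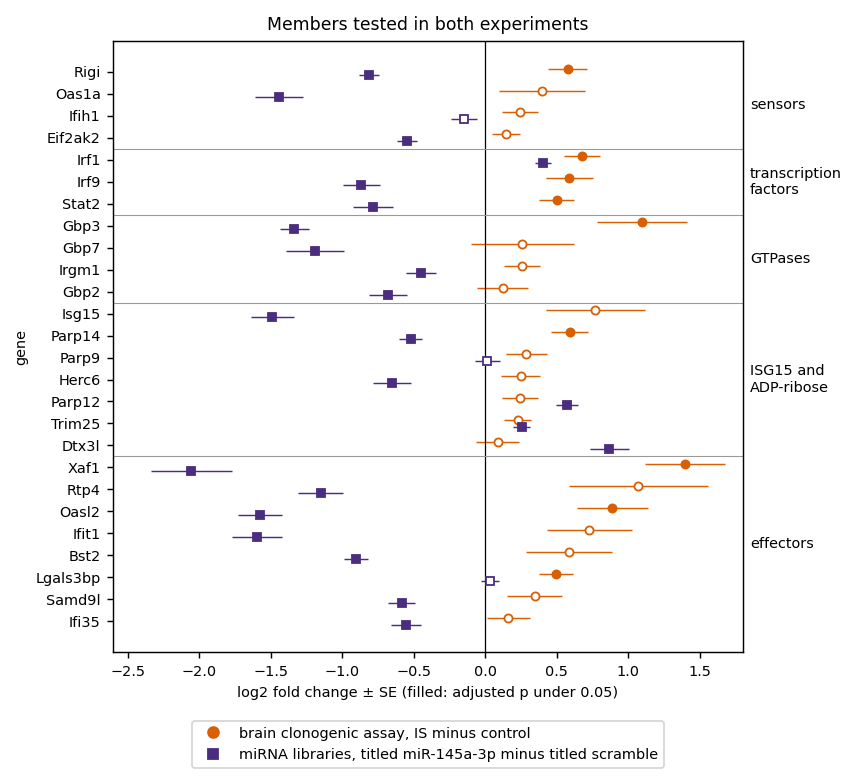
Log2 fold change with its SE of the 26 members tested in both experiments, IS minus control in the brain assay (orange circles) and libraries titled miR-145a-3p minus those titled scramble (purple squares); filled symbols passed at adjusted p under 0.05. Every orange symbol lies right of 0, and 20 of the 26 purple ones lie left of it.

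In cultured 4T1 cells the exosomes moved few members and in no common direction. With IS exosomes 2 of 23 tested members rose (8.7% against 9.97% of all 10888 genes) and 4 fell (17.4% against 9.32%). Oasl2 was at 5.66, 8.92 and 7.16 CPM in untreated cells and 3.33, 2.82 and 4.35 CPM with IS exosomes, -1.02 ± 0.22 on the log2 scale with adjusted p = 0.00355. Irf1 was at 59.1, 59.3 and 57 CPM untreated and 49.1, 44.7 and 48.5 CPM with IS exosomes, -0.29 ± 0.05 with adjusted p = 0.00103. Both fell. Isg15 (-0.71 ± 0.21, adjusted p = 0.0269) and Oasl1 (-0.66 ± 0.18, adjusted p = 0.0186) fell as well in edgeR. Neither of these passed in DESeq2, where adjusted p was 0.0946 and 0.0759. Eif2ak2, at 36.5, 35.1 and 31 CPM untreated and 40.9, 45.3 and 40.1 CPM with IS exosomes, rose by 0.30 ± 0.08 (adjusted p = 0.0109), and Lgals3bp, at 33.1, 34.7 and 35.7 against 42.8, 47.8 and 40.6 CPM, rose by 0.33 ± 0.07 (adjusted p = 0.00298). The count that fell was 2 without untreated 2 or IS 1, and the count that rose was 1 without untreated 3.

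With IR exosomes, tested against the same untreated libraries, 1 of 23 members rose (4.35% against 6.67%) and 3 fell (13% against 6.9%). Rigi was at 29.5, 30.8 and 29.6 CPM untreated and 21.7, 22.7 and 25 CPM with IR exosomes, -0.37 ± 0.08 with adjusted p = 0.00728. Irf1, at 48.5, 50.6 and 48.9 CPM, had -0.24 ± 0.05 (adjusted p = 0.00579), and Oasl2, at 3.63, 5.22 and 4.04 CPM, -0.74 ± 0.21 (adjusted p = 0.0292), a call lost without untreated 2, untreated 3, IR 1 or IR 3. Eif2ak2 rose by 0.29 ± 0.08 (adjusted p = 0.016), a call lost without untreated 3 or IR 3. The fall of Rigi also set the 2 exosome groups apart: with IS exosomes it was at 30.5, 27.1 and 32.3 CPM, and IR minus IS was -0.38 ± 0.08 (adjusted p = 0.0143), the 1 member of 23 to pass as lower (4.35% against 3.45% of genes), with 0 higher (background 2.82%; DESeq2 also 0, and 9 of 23 at an unadjusted p under 0.05 in either direction, where 22.7% of all genes were). That call was lost without IS 1 or IS 3. The other 18 members, among them Irf7, Usp18, Igtp, Gbp7, Ifit1, Ifit3 and Xaf1, were below the filter in culture.

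Among the other pathway genes in culture, 13 of 73 rose (17.8% against 9.97% of all genes) and 5 fell (6.85% against 9.32%) with IS exosomes. With IR exosomes 9 rose (12.3% against 6.67%) and 5 fell (6.85% against 6.9%). Tapbp fell by 0.57 on the log2 scale with IS (SE 0.05, adjusted p = 2.51e-07) and by 0.40 with IR exosomes (SE 0.05, adjusted p = 1.33e-05). With IS exosomes Nlrc5, the activator of MHC class I genes, rose by 0.65 ± 0.09 and Ikbke, a kinase that activates interferon regulatory factors, by 0.72 ± 0.11. With IR exosomes Ifi203, of a family of DNA sensors, rose by 0.57 ± 0.06 (adjusted p = 3.99e-06) and the receptor kinase Jak2 by 0.37 ± 0.06. Ifnar2 rose with both, by 0.48 ± 0.09 (adjusted p = 0.00165) and 0.34 ± 0.09 (adjusted p = 0.0241), the latter in edgeR but not in DESeq2 (0.0523). Between the exosome groups 2 pathway genes were lower in IR, Mavs (-0.35 ± 0.06, adjusted p = 0.00287) and Ikbke (-0.45 ± 0.10, adjusted p = 0.0164), and 2 higher in edgeR but not in DESeq2, Tapbp (0.17 ± 0.05, adjusted p = 0.0423 and 0.0551) and Ifi203 (0.20 ± 0.06, 0.0479 and 0.0914). Of the 73 pathway genes 2.74% were thus lower and 2.74% higher in IR than in IS, where 3.45% and 2.82% of all genes were. Ifnb1 had 0 counts in the 9 libraries, which allows at most 0.0311 CPM over them together. Epithelial markers summed to 3600 to 3610 CPM untreated, 2670 to 2730 with IS and 3130 to 3200 with IR exosomes; their part in the result was not tested.

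In primary tumours all 41 members were tested and 0 passed in either direction (background 0% each way in edgeR). An unadjusted p under 0.05 by edgeR was found for 9, where 7.65% of all 12962 genes had one. DESeq2 called 1 member higher and 124 of all genes in either direction. Fold changes of IR minus control were above 0 for 34 of 41 members, with a median of 0.25 against 0.01 over all genes, and the GTPases had the largest median of the 5 roles, 0.79. Gbp2 was at 87.4, 129, 96 and 111 CPM in controls and 105, 198, 182, 221 and 247 CPM in IR, 0.85 ± 0.23 with adjusted p = 0.466 in edgeR and 0.0343 in DESeq2. Igtp, which acts on vacuoles around parasites, was at 34, 113, 40 and 79.5 CPM in controls and 39.5, 159, 95.2, 165 and 208 CPM in IR, 1.00 ± 0.49 with adjusted p = 0.694. Irgm1 was at 59.6, 122, 58.8 and 87.7 CPM in controls and 71.6, 143, 146, 183 and 165 CPM in IR, 0.79 ± 0.29 with adjusted p = 0.582. In each of these IR 1 lay among the controls, while the other IR libraries of Gbp2 and Irgm1 lay above all of them. Mx1 and Mx2, at -0.19 ± 0.46 and 0.00 ± 0.38, were highest in control 2, at 22.3 and 14.6 CPM.

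The spread between tumours was wide and ran through most members at once. Control 2 was the highest control for 28 of the 41 members, and controls 1 and 3 were the lowest for 19 and 22. Irf7 was at 53.2, 129, 41.9 and 73.6 CPM in controls and 73.6, 110, 78.8, 72.6 and 96.9 CPM in IR, 0.22 ± 0.30, so that the group difference was small beside the range of the controls alone. Of the 100 other pathway genes tested 0 passed in edgeR, 1 in DESeq2 and 8 at an unadjusted p under 0.05 by edgeR, where 7.65% of all genes did. B cell markers (3 of 3 tested) summed to 228 CPM in control 2, 290 in IR 2 and 52.8 in IR 5 and to at most 2.62 elsewhere, and T and NK cell markers to 171, 188 and 53.1 CPM in those libraries and to at most 25.6 in the others. Fibroblast markers (8 of 8 tested) summed to 3700 to 6790 CPM in controls and 6290 to 12400 in IR, and smooth muscle and pericyte markers (6 of 6) to 209 to 385 and 226 to 928; the part of these cell types in the differences was not tested. Without the 3 libraries that hold B cell markers, chosen after seeing the data, 38 of 41 members were positive with a median of 0.49, and 0 passed; without control 2 alone the median was 0.44, and without control 3 it was 0.12.

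**Figure D5:**
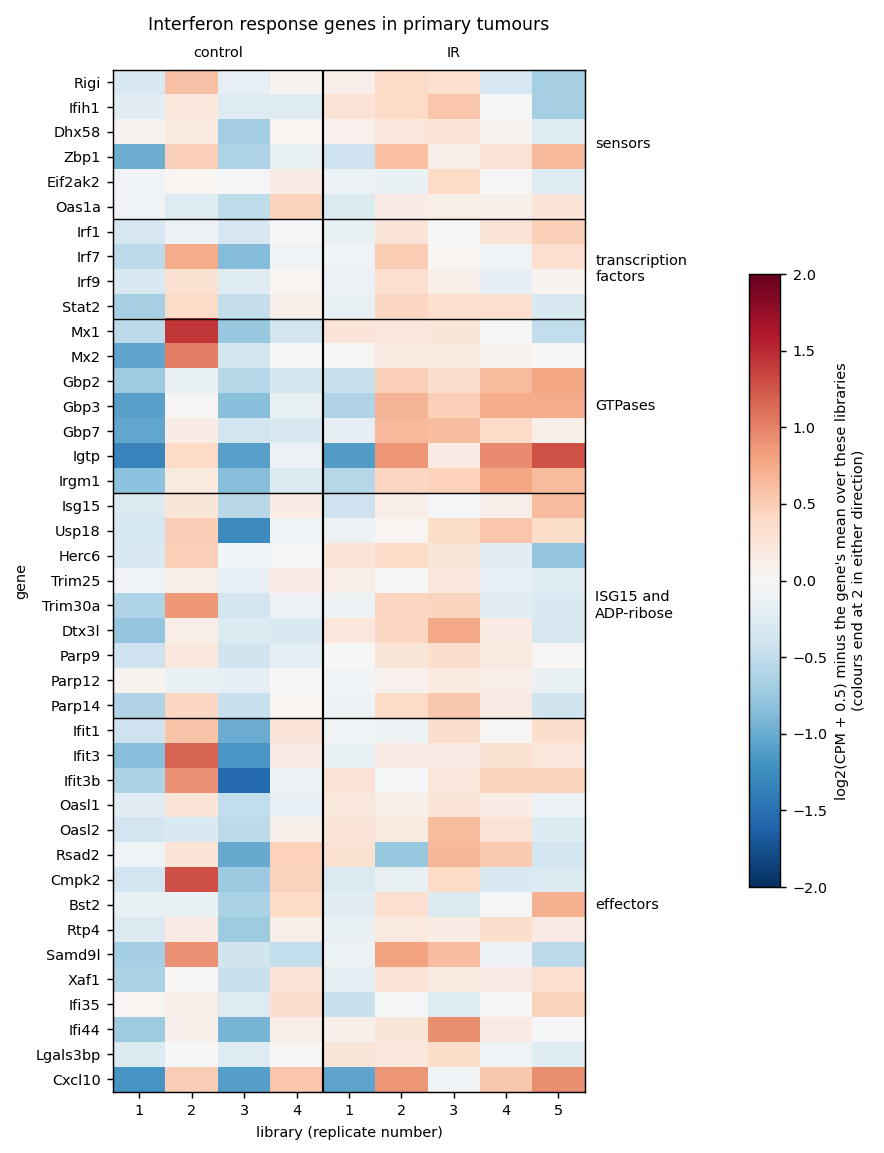
Level of the 41 members in the 9 primary tumour libraries, as log2(CPM + 0.5) minus the gene's mean, with genes grouped by role. Controls 1 and 3 are blue for most members and control 2 red, and the GTPase rows from Gbp2 to Irgm1 are red in IR 2 to IR 5 but not in IR 1.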

How the data were processed

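Libraries were made with a stranded mRNA kit, per the labels' protocols, and processed with the nf-core RNA-seq pipeline, per the series' design text; Trimmomatic, STAR, featureCounts and DESeq2, and the builds GRCm38/mm10 and GRCm39/mm39, are named without roles in the submitters' processing notes. The authors deposited expected counts per gene, from RSEM for the culture and brain tables and from salmon for the tumour and miRNA tables, per the labels. The build and strand setting of each table are not given in the sources used here. Across the tables, 3 columns of no listed sample were not used. Columns of the brain and culture IR groups were mapped to their group, and IR numbers there are those of the column names.

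Expected counts were rounded. Per experiment, genes with 3 CPM or more in at least 3 libraries were kept, following the design text's threshold, and fitted over all groups with edgeR 4.0.16 (R 4.3.3; TMM scaling, quasi-likelihood test, no covariate). P-values were Benjamini-Hochberg adjusted over all genes kept and called at 0.05. The SE is the log2 fold change divided by the root of F. Levels are CPM after TMM scaling, and they are compared within a gene, not between genes, because they are not per length. The script was tested on simulated data. DESeq2 1.42.0, upper quartile scaling, 2 other filters, a fit of the compared groups alone, a replicate block and leaving out each library were alternatives.

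The members and lists were chosen with earlier results of these data known. All members were described by role; those called were named with values, at most 12 in full per comparison by smallest p, as were up to 4 called pathway genes, Ifnar1, Ifnar2 and Ifnb1, and the 5 genes most like the members' mean in brain. Ifit3 and Ifit3b, and Oas1a and its close copies, share near-identical sequence, so their split is uncertain. A pathway gene that the rule names is not reported here. Promoter sequences are from RefSeq (GRCm38.p6).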

Additional observations from a re-analysis of the deposited data

Results flagged for a closer look

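Over 184 sets of 4 or 5 libraries of 1 tested member, 10 (5.43%) held a library far from the rest by Dixon's test, where chance gives about 1 in 20. In brain these were Herc6 in IS 2 (26.5 CPM, next 18.3), Trim25 in IS 1 (81.3 CPM, next 112), Ifit3b in control 1 (5.16 CPM, next 3.46) and Samd9l in control 4 (10.7 CPM, next 20.7). In tumours Gbp3 stood low in IR 1 (36.3 CPM, next 77.8), Cmpk2 and Ifi44 high in IR 3 (14.1 CPM, next 9.46, and 97.7 CPM, next 60.6), and 3 genes high in control 2: Ifih1 (33.6 CPM, next 24.8), Mx1 (22.3 CPM, next 6) and Samd9l (62 CPM, next 24.6).

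Rigi moved in opposite directions in the IR groups of 2 experiments. Its log2 fold change was -0.37 in culture with IR exosomes against untreated cells and 0.49 in the IR group of the brain assay against control, with no overlap between groups in either. Only the IR groups were searched for such a turn. In the IS groups Irf1 was called lower in culture (-0.29) and higher in brain (0.67), and Oasl2 likewise (-1.02 and 0.89). The differences between the experiments were not tested.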

How the results depend on the processing

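The tests rest on 2 to 5 libraries a group; low members (under about 3 CPM) were not tested, and the tumour libraries varied most (biological coefficient of variation 0.326, against 0.159 in brain, 0.0819 in the miRNA experiment and 0.0576 in culture), so that a count of 0 there does not show the members alike. The fold changes of the 11 members that rose in brain IS kept their sign under all 17 alternatives.

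Counts moved as follows. With IS exosomes 2 members fell by DESeq2. In IR against IS exosomes 2 were higher with no filter. In brain IS 6 rose without IS 1 and IS 2. In brain IR against IS 3 were lower by DESeq2 and 1 with no filter. In tumours 1 was higher by DESeq2. In the miRNA experiment 33 were lower with no filter and 32 with filterByExpr, whose group size of 2 can admit members through the libraries titled scramble alone. Over all genes these 2 settings gave 7999 and 7421 calls in either direction, against 6093 in the main fit.
Leaving out 1 library at a time gave these ranges: in brain IS 3 to 12 higher, in brain IR 0 to 2 higher, in brain IR against IS 0 to 1 lower; with IS exosomes 1 to 2 higher and 2 to 5 lower, with IR exosomes 0 to 1 higher and 2 to 3 lower, in IR against IS exosomes 0 to 1 each way; in the miRNA experiment 19 to 20 lower and 4 higher; in tumours 0. Over all genes, calls in either direction ranged from 465 to 872 in brain IS, 836 to 1803 in brain IR and 0 to 1139 in brain IR against IS. They ranged from 1498 to 1688 with IS exosomes, 1067 to 1402 with IR exosomes and 295 to 871 in IR against IS exosomes. Without 1 library titled miR-145a-3p they ranged from 4698 to 5079, and in tumours from 0 to 1. The cause was not tested.

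Signs turned for members near 0 that were not called. Leaving out 1 library at a time gave Rigi -0.050 to 0.069 with IS exosomes, Isg15 -0.19 to 0.045 and Oasl1 -0.11 to 0.011 with IR exosomes, Eif2ak2 -0.041 to 0.045 in IR against IS exosomes, Oasl2 -0.16 to 0.096 and Irf9 -0.021 to 0.25 in brain IR, Rigi -0.15 to 0.0026 in brain IR against IS, and in tumours Mx1 -0.43 to 0.67 and Mx2 -0.25 to 0.57. Oasl2 in brain IR was 0.0093 with the replicate block, Mx2 in tumours -0.025 with upper quartile scaling, and Mx1 in tumours 0.27 with the replicate block and 0.76 without the libraries that hold B cell markers.

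The replicate numbers share no stated batch, and same-numbered libraries did not deviate together in every pair (correlations over 0.1 in 4 of 15 pairs in brain, 1 of 9 in culture, 0 of 2 in the miRNA experiment and 3 of 4 in tumours, where control 4 by title is numbered 5 in its library name, so that its pairing is in doubt). With the replicate block 11 members rose in brain IS, 2 in brain IR and 0 differed in tumours, and in the miRNA experiment 20 were lower and 3 higher; over all genes the block gave 3990 calls against 6093 in the miRNA experiment. Over all genes, brain IR against IS gave 6 calls by edgeR, 604 by DESeq2 and 334 with no filter, and tumours 0, 124 and 0.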

Other observations

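Oasl1, too low for a test in brain, was at 7.46 CPM in IR 3 and at 0.319 to 1.59 CPM in the other 14 brain libraries. In tumours Ifng, the gene of interferon gamma, named after its values were seen, was at 0, 0.198, 0.0532 and 0.15 CPM in controls and 0.0466, 1.24, 0.477, 1.79 and 1.81 CPM in IR, so that the IR libraries other than IR 1 were above all controls; it did not reach the filter.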
